A study of Homo sapiens with 11 samples.

Results

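The RNA bound by RPS19 carrying the R101H substitution was compared with the RNA bound by wild-type (WT) RPS19. RPS19 is a protein of the small (40S) ribosomal subunit, and R101H is one of the substitutions found in Diamond-Blackfan anemia. The measurement was enhanced crosslinking and immunoprecipitation (eCLIP), in which cells are irradiated with ultraviolet light, the protein is precipitated (IP) with its crosslinked RNA fragments, and the fragments are sequenced beside a size-matched input. Each protein carried a V5 tag and was made from a plasmid transfected into HEK293T, a line derived from human embryonic kidney in which the SV40 large T antigen is expressed. The comparison used 2 R101H samples and 3 WT samples of the 11 in the series, the others being 3 samples of the R62W substitution and 3 inputs. The labels' protocols say that untransfected cells gave the inputs, so all IP cells carried a plasmid that the input cells lacked. The labels do not say whether the samples of a group were separate cultures, so each p-value measures the spread of these samples, and that spread may be technical.

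The authors deposited 1 list of enriched windows and 1 list of enriched repeat elements per protein, made from all replicates of that protein. A window is a stretch of up to about 100 bases of a transcript, and its value is a log2 odds ratio of IP over input. Every window listed in R101H or WT or both was taken, matched on chromosome, start, end and strand. The R101H list held 93331 windows and the WT list 15402, which made 97651 in all, of 122708 windows listed for any of the 3 proteins. A window missing from a list has no value there, so its absence is not a measured zero. Windows listed in one group are called R101H-only or WT-only, and those in both are called shared.

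RPS19 sits on the head of the 40S subunit and takes part in the late cleavages that make 18S ribosomal RNA. A 40S subunit scans the 5′ UTR of an mRNA and, joined by the 60S subunit, decodes the coding sequence. Introns are removed in the nucleus, so they are found mainly in precursor RNA. Loss of RPS19 is known to stall 40S maturation and, in erythroid cells, to activate p53. HEK293T cells are a limited model of that disease, since the large T antigen binds p53 and the cells are not erythroid.

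Some enriched windows overlapped microRNA hairpins, and the mature microRNAs named in the results are shown here with the seed (bases 2 to 8, which pair with targets) in capitals. A window that overlaps a hairpin need not cover its mature microRNA. The sequences are from RefSeq (GRCh38.p14). The first 4 lie at chr1:9151735-9151756, chr13:50049027-50049048, chrX:45746180-45746202 and chrX:45747036-45747056, all on the minus strand. The last 4 belong to the MIR17HG cluster on the plus strand of chromosome 13. miR-221-3p and miR-222-3p share one seed, and miR-17-5p and miR-20a-5p share another.
miR-34a-5p: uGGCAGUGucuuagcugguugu
miR-16-5p: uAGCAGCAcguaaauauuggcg
miR-221-3p: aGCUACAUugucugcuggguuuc
miR-222-3p: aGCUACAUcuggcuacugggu
miR-17-5p: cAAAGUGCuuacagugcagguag
miR-20a-5p: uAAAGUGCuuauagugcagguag
miR-18a-5p: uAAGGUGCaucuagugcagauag
miR-19a-3p: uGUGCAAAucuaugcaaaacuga

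The R101H list held most of what was listed. Of the windows in either list, 82249 were R101H-only (84.2%), 11082 were shared (11.3%) and 4320 were WT-only (4.42%). These shares are the background for every count of windows below. Seen from the other side, 11.9% of R101H windows were also in the WT list, and 72% of WT windows were also in the R101H list (exact Clopper-Pearson 95% interval 71.2 to 72.7%, which covers counting error only). Of 8182 gene names given to windows, some of which join overlapping genes, 4925 had windows in R101H alone (60.2%), 3188 in both (39%) and 69 in WT alone (0.843%). Among all gene names, 7879 had more R101H than WT windows and 168 had more WT than R101H windows. The lists are 1 per group, so membership carries no test between groups. Whether the depth or agreement of each group's replicates set the list lengths was not tested. When the R101H list was shortened to its best-supported windows, at the length of the WT list, 6366 windows were shared, 41.3% of WT windows recurred, and the order of genes listed in 1 group turned round, with 683 in R101H alone and 1098 in WT alone.

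The 3 classes differed in their counts. R101H-only windows had a median pooled IP count of 44, a median pooled input count of 11 and a median log2 odds ratio of 1.95. Shared windows had a median IP count of 94 with an input count of 15 in R101H, and an IP count of 58 with an input count of 15 in WT. WT-only windows had a median IP count of 34, an input count of only 4 and a median log2 odds ratio of 2.65. The median share of G and C bases was 49.3% in R101H-only windows and 54% in WT-only windows. R101H-only windows were spread over many genes, with 50% of them in 1085 genes, while 50% of WT-only windows were in 66 genes. The 10 genes with most windows of a class held 1.73% of R101H-only windows and 19.8% of WT-only windows. Of the R101H-only windows, 59.9% were also listed for R62W, against 37.9% of the WT-only windows. The depth of each library is not given in the tables. Counts were pooled over replicates, 2 in R101H and up to 3 in WT, so sums of the 2 groups are not on one scale. In shared windows the R101H minus WT log2 odds ratio had a median of 0.60 over all windows, so every median difference of a gene or list stands against that value. After centring on it, a median under 0.60 turns negative. The mean was higher in R101H in 82.5% of all shared windows. Both R101H values lay above every WT value in 48.4% and below every WT value in 3.84%. These 3 shares are the background for such counts below. In them, every WT value means the values of the WT replicates that passed, 2 or 3 per window.

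R101H-only windows lay mainly in exons of mRNAs, and WT-only windows lay mainly in introns. Coding sequence held 45197 R101H-only windows (55% of them), against 559 WT-only windows (12.9%). The 3′ UTR held 21469 R101H-only windows (26.1%), against 223 WT-only windows (5.16%). Introns held 8381 R101H-only windows (10.2%), against 3209 WT-only windows (74.3%). The 5′ UTR held 3169 R101H-only windows (3.85%), against 88 WT-only windows (2.04%). Exons of small RNAs, such as snoRNAs and snRNAs, were the one class in which WT-only windows were the more numerous in absolute count, with 15 R101H-only, 43 shared and 34 WT-only windows. The difference in intronic share, R101H-only minus WT-only, was −64.1 percentage points over all windows, −32.9 points among windows with a pooled input count of at least 10 and −31.9 points when each gene was counted once. It kept its sign in all alternatives run.

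**Figure D1:**
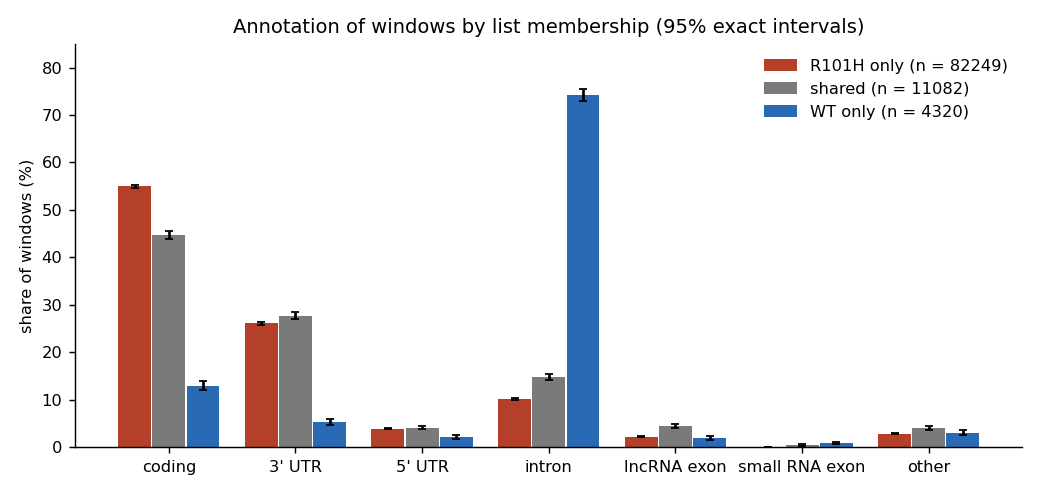
Share of windows (percent, y axis) in each transcript feature (x axis) for R101H-only, shared and WT-only windows. Bars start at 0 and whiskers are exact 95% intervals for counting error. Introns hold 10.2% of R101H-only windows and 74.3% of WT-only windows, and coding sequence holds 55% and 12.9%.

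Read as recurrence, WT windows in mature mRNA were nearly always listed in R101H as well, and WT windows in introns mostly were not. The share of WT windows also listed in R101H was 93.2% in the 3′ UTR, 89.9% in coding sequence, 86.2% in lncRNA exons, 83.6% in the 5′ UTR, 55.8% in small RNA exons and 33.7% in introns. Within introns, 65.3% recurred next to the 3′ splice site, 48.4% next to the 5′ splice site and 25.1% in the intron body. Among WT windows that passed in all 3 WT replicates, 99.2% recurred in coding sequence, 98.1% in the 3′ UTR and 44.3% in introns. Intronic WT windows had low input counts, with a median of 3 among the WT-only ones. Where the pooled WT input was 10 to 99, 92.5% recurred in coding sequence, 96.6% in the 3′ UTR and 52.8% in introns. Where it was 0 to 4, the values were 80.7%, 78% and 23.7%. The gap between exons and introns was thus present at each input level, and the part of input depth in its size was not tested.

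Genes with 10 or more WT intronic windows held 3054 of the 4838 WT intronic windows and 2248 of the 3209 WT-only intronic windows. In 73 of these genes WT-only windows outnumbered shared ones, in 24 shared windows outnumbered WT-only ones and in 4 the counts were equal. In 74 genes both patterns were present at once, with at least 5 R101H-only coding windows and at least 5 WT-only intronic windows, at medians of 14 and 9. The R101H list had intronic windows of its own. The genes with most were NBPF20 with 86, AGAP3 with 66, ADGRL1 with 50, NBPF19 with 48 and CAPN15 with 46. NBPF genes are near-identical copies of one another, so the copy their reads came from is uncertain.

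Genes with the most WT-only windows had them almost wholly in introns. GSE1, which encodes a coiled-coil protein of a histone deacetylase complex, had 61 R101H-only, 9 shared and 161 WT-only windows, of which 159 were intronic. Its WT-only intronic windows summed to 6585 IP counts over 380 input counts in WT. LMNA, which encodes the nuclear lamins A and C, had 1 R101H-only, 3 shared and 105 WT-only windows, 100 of them intronic. The WT-only intronic windows of LMNA summed to 4402 IP counts over 140 input counts in WT. Its 1 shared intronic window had a mean log2 odds ratio of 2.93 in R101H and 5.36 in WT, on 14 and 92 IP counts, with an input count of 2 in each. HDAC5, a class II histone deacetylase, had 21 R101H-only, 8 shared and 76 WT-only windows, and all 76 were intronic. LMNA thus had 4 R101H windows in all, while GSE1 had 70.

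Of the casein kinase 1 genes, CSNK1E showed the same division within the gene, and CSNK1D showed it less. CSNK1E and CSNK1D encode the kinases that act on late 40S precursors, and the list of late 40S maturation factors held 199 R101H-only, 109 shared and 112 WT-only windows (26.7% WT-only against 4.42% over all windows). Nearly all of the WT-only windows, 109, were intronic, and CSNK1E alone held 79 of the 112. Of the intronic windows of all genes, 24.3% were WT-only. CSNK1E introns held 11 R101H-only, 17 shared and 78 WT-only windows. CSNK1D introns held 14 R101H-only, 43 shared and 31 WT-only windows, while all 14 shared windows of its 3′ UTR were higher in R101H, with a median difference of 0.86. In the same list XPO1, the exportin that carries pre-40S subunits out of the nucleus, had 32 R101H-only, 5 shared and no WT-only windows, and TSR1, a pre-40S assembly factor, had 23 R101H-only windows and nothing in WT.

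Genes that p53 activates held a further large share of the WT-only windows. The 27 listed p53 target genes held 221 R101H-only, 276 shared and 271 WT-only windows, so that 28.8% were R101H-only and 35.3% WT-only. Introns held 33 R101H-only, 127 shared and 243 WT-only of these, while the 3′ UTRs held 83, 72 and 9. CDKN1A, which encodes the cell cycle inhibitor p21, had 1 R101H-only, 38 shared and 39 WT-only windows. Its introns held no R101H-only, 17 shared and 38 WT-only windows. In all 17 shared intronic windows the mean was lower in R101H, by a median of −1.17 on the log2 scale. In 11 of them both R101H values lay below every WT value, against 3.84% of all shared windows and 237 of 1629 intronic ones. In its 3′ UTR the 13 shared windows went the other way, with 12 of 13 higher in R101H and a median difference of 0.50, which is under the 0.60 of all shared windows. Summed over the shared windows, CDKN1A introns had 567 IP counts over 76 input counts in R101H and 1988 over 121 in WT, while its 3′ UTR had 2823 over 501 in R101H and 2389 over 621 in WT.

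**Figure D2:**
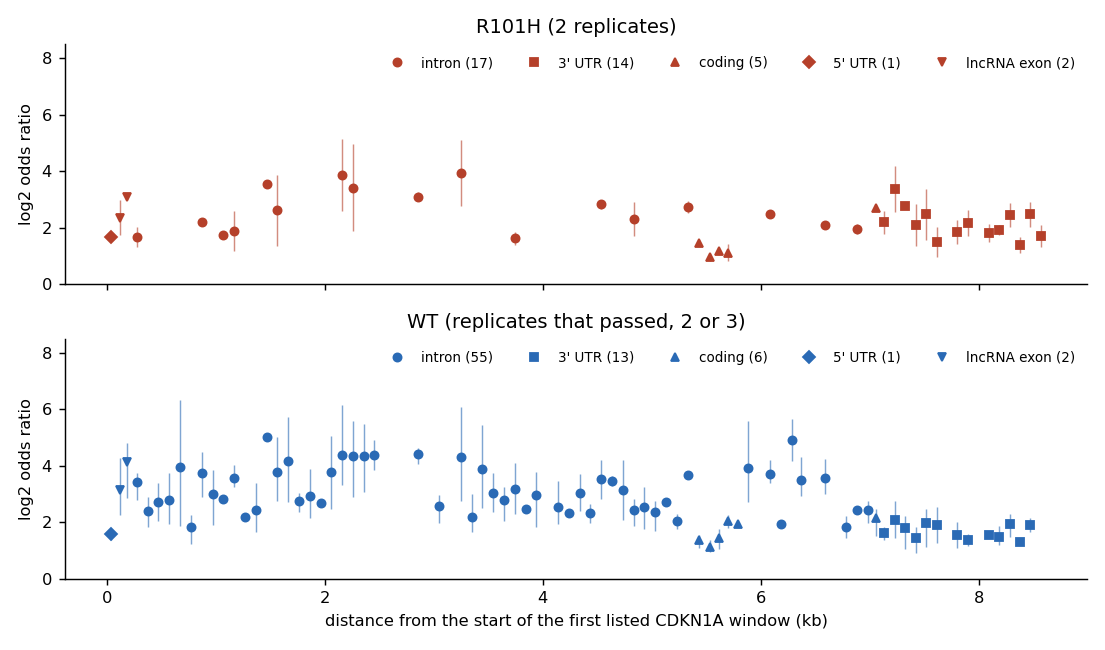
Log2 odds ratio of IP over input (y axis) of each listed CDKN1A window against its distance from the start of the first listed window (x axis, kb), with R101H in the upper panel and WT in the lower one. Points are means over passing replicates, lines run over the lowest and highest replicate, and marker shapes give the feature. Circles, the intronic windows, number 17 in R101H and 55 in WT, while squares, the 3′ UTR windows, number 14 and 13.

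One intronic CDKN1A window, chr6:36682409-36682507, was measured in all 5 samples with input counts of 10 in R101H and 12 in WT. Its log2 odds ratios were 1.39 and 1.85 in R101H, against 2.31, 3.10 and 4.11 in WT. The groups did not overlap, the difference was −1.55 (SE 0.56) and limma's adjusted p was 0.196 over all shared windows and 0.087 over those enriched in every replicate. In other p53 targets too the WT-only windows were mostly intronic. MIR34AHG, the host transcript of miR-34a, had 10 R101H-only, 26 shared and 105 WT-only windows, of which 102 were intronic. BBC3, which encodes the apoptosis protein PUMA, had 7 R101H-only, 36 shared and 36 WT-only windows, and all 36 WT-only ones were intronic. FDXR, a mitochondrial ferredoxin reductase, had 29 of 34 shared intronic windows lower in R101H. BTG2, an antiproliferative factor, had 17 of 18 shared 3′ UTR windows higher in R101H, with a median of 0.98. MDM2, the p53 ubiquitin ligase, had 47 R101H-only, 15 shared and 4 WT-only windows, so the target list was not uniform.

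The integrated stress response genes held 113 R101H-only, 12 shared and 16 WT-only windows, and 15 of the 16 WT-only windows were intronic. SESN2, a sestrin, had 7 R101H-only, 1 shared and 11 WT-only windows. ATF3, a stress transcription factor, had 3 WT-only windows and none in R101H. ATF4, the factor whose translation rises when initiation is limited, had 10 R101H-only, 1 shared and no WT-only windows. Of the genes listed in WT alone, CD55 had the most with 13 windows, followed by RP11-875O11.1 with 10, TNFRSF12A with 6 and CTB-25B13.5 with 5.

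The genes with most R101H-only windows encode very large proteins. RNF213 had 162, MDN1 had 160, MACF1 had 159, KMT2A had 141 and HECTD4 had 139. Most listed windows of these genes were also listed for R62W, with 160 of 179 in RNF213 and 192 of 208 in MDN1. Long coding sequences offer more windows, and window counts were not divided by length. Among genes with no WT window at all, ADCY1, an adenylyl cyclase, had the most with 93 R101H-only windows, and others among them were ADGRV1, an adhesion receptor, with 61, MYO9A with 49, ITPR3 with 47 and AGO2, an argonaute, with 46. Of these windows, 71 in ADCY1, 17 in ADGRV1, 21 in MYO9A, 21 in ITPR3 and 24 in AGO2 were also listed for R62W.

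**Figure D3:**
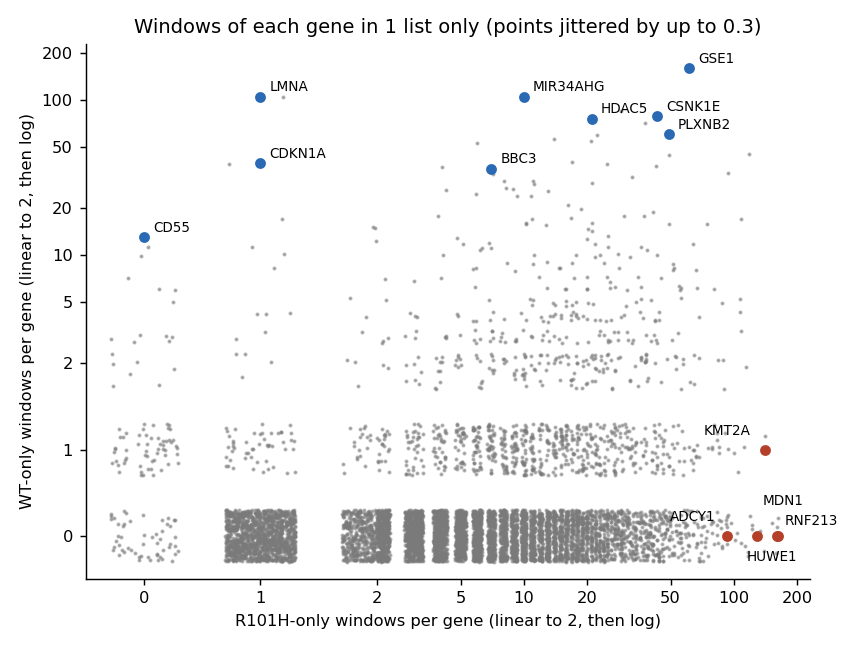
R101H-only windows (x axis) and WT-only windows (y axis) of each gene, with joined names and bare Ensembl identifiers left out, on axes that are linear to 2 and logarithmic above, with points offset at random by up to 0.3 so that equal counts can be seen. RNF213, MDN1, HUWE1 and ADCY1 lie at the right with no WT-only window, while LMNA, MIR34AHG and GSE1 lie at the top with 105, 105 and 161 WT-only windows.

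The large ubiquitin ligases were R101H-only or shared almost throughout. Their 15 listed members held 1210 R101H-only, 422 shared and 5 WT-only windows (0.305% WT-only, against 4.42% over all windows). Most of these windows lay in coding sequence, where 1.10% of all windows were WT-only. In the 3′ UTR that share was 0.90%, and in introns it was 24.3%. The R101H-only share of the ligase windows was 73.9%, below the 84.2% of all windows. RNF213 had 162 R101H-only and 17 shared windows, HUWE1 had 129 and 75, HERC2 had 97 and 87, and MYCBP2 had 93 and 97, none of them with a WT-only window. Of the 1210 R101H-only windows of these ligases, 1003 were also listed for R62W, against 59.9% of all R101H-only windows. In the shared windows the means were higher in R101H in 410 of 422, with a median difference of 1.28, against 0.60 over all shared windows. All 75 shared windows of HUWE1 were higher in R101H, with a median of 1.41. In 71 of them both R101H values lay above every WT value, against 48.4% of all shared windows. The PI3K-related kinases had 483 R101H-only, 92 shared and 1 WT-only windows. These include PRKDC, which acts in DNA repair, SMG1, which acts in nonsense-mediated decay, and TRRAP, a histone acetyltransferase scaffold. All 92 of their shared windows were higher in R101H, with a median difference of 1.05. Of the 483 R101H-only windows of these kinases, 388 were also listed for R62W.

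In chromatin, cytoskeletal and nuclear pore genes most shared windows were also higher in R101H, as were 82.5% of all shared windows. Acetyltransferase and KMT2 coactivator genes held 646 R101H-only, 196 shared and 3 WT-only windows, with 188 of 196 shared windows higher in R101H and a median of 1.09. Among them KMT2B, a histone H3 lysine 4 methyltransferase, had 64 shared windows, all higher in R101H, with a median of 1.45. Of the 646 R101H-only windows of the coactivator genes, 576 were also listed for R62W. Large cytoskeletal proteins held 874 R101H-only, 156 shared and 17 WT-only windows, with 143 of 156 shared windows higher in R101H and a median of 0.83. MACF1, which links actin to microtubules, had 159 R101H-only and 45 shared windows. Nuclear pore and lamina genes held 716 R101H-only, 87 shared and 121 WT-only windows, and 105 of the 121 were in LMNA. Of their 87 shared windows, 79 were higher in R101H. TPR, the basket protein of the pore, had 70 R101H-only, 16 shared and no WT-only windows.

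Small subunit processome genes held 413 R101H-only, 24 shared and 4 WT-only windows (93.7% R101H-only, against 84.2% over all windows). Most of these windows lay in coding sequence, where 89.1% of all windows were R101H-only. In that list HEATR1 had 46 R101H-only and 3 shared windows, PDCD11 had 36 and 3, and BMS1, the processome GTPase, had 30 and none. The 60S biogenesis factors held 682 R101H-only, 88 shared and 12 WT-only windows (87.2% R101H-only). MDN1, the giant ATPase that removes assembly factors from 60S precursors, held 160 of the 682, and all 48 of its shared windows were higher in R101H, with a median of 1.30. URB1, a 60S assembly factor, had 50 R101H-only and 6 shared windows.

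Genes of the translation machinery had R101H-only shares on both sides of the 84.2% of all windows. The share was 84.2% in initiation factors, 91.5% in aminoacyl-tRNA synthetases, 77.6% in small subunit proteins and 73.9% in large subunit proteins. Initiation factors held 521 R101H-only, 90 shared and 8 WT-only windows, with a median shared difference of 0.46, below the 0.60 of all shared windows. EIF4G1, the scaffold of the cap complex, had 61 R101H-only and 12 shared windows. Aminoacyl-tRNA synthetase genes held 260 R101H-only, 19 shared and 5 WT-only windows, with a median of 0.67, which was −0.45 in the 2 of them enriched in every replicate. Small subunit ribosomal protein genes other than RPS19 held 128 R101H-only, 30 shared and 7 WT-only windows, with a median of 0.31, and large subunit ones held 173, 43 and 18, with a median of 0.36, both also below 0.60. RACK1, which sits on the 40S head, had 17 R101H-only and 7 shared windows. RPS6 had 13 R101H-only windows and none in WT. Of the 10 R101H-only windows with the highest IP counts, 5 lay in 5′ UTRs, those of MIF, RPS19, PABPC1, RPL35 and RPS14, and RPS14 had 1986 IP over 455 input counts with log2 odds ratios of 0.56 and 1.65.

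RNA processing genes had many windows in both lists. SR proteins and hnRNPs held 646 R101H-only, 233 shared and 30 WT-only windows, with 208 of 233 shared windows higher in R101H and a median of 0.55, near that of all shared windows. SRRM2, a splicing coactivator, had 44 R101H-only and 35 shared windows, with a median of 0.85. PTBP1, a splicing repressor, had 19 R101H-only, 33 shared and 20 WT-only windows. Argonaute, TNRC6 and microRNA processing genes held 521 R101H-only, 43 shared and 7 WT-only windows, among them CNOT1, the deadenylase scaffold, with 75 and TNRC6A, the argonaute partner, with 67 R101H-only windows. Zinc finger (ZNF) genes held 1047 R101H-only, 71 shared and 32 WT-only windows.

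Shared windows allowed the strength of enrichment to be compared. Over all 11082, the R101H minus WT difference had a median of 0.60 and quartiles of 0.17 and 1.04 on the log2 scale. The mean was higher in R101H in 9145 windows (82.5%) and lower in 1937 (17.5%). Both R101H values lay above every WT value in 5366 windows (48.4%) and below every WT value in 426 (3.84%). A WT replicate that did not pass has no value in a window, so it enters neither the mean, these counts nor the fit. All 3 WT values were present in 2730 windows. In limma none of the 11082 windows passed an adjusted p of 0.05 in either direction (0%), with a smallest adjusted p of 0.162. At an unadjusted p under 0.05, 2285 windows were higher and 80 lower in R101H. Most shared windows passed in only 2 of the 3 WT replicates. When the fit was limited to the 2730 windows that all 5 replicates listed as enriched, limma called 487 higher in R101H (17.8%) and 11 lower (0.403%). When the 6945 windows with a pooled input count of at least 10 in both groups were fitted, it called 647 higher (9.32%) and 7 lower (0.101%). In these 2730 windows both R101H values lay above every WT value in 1515 (55.5%) and below every WT value in 115 (4.21%). After the median shift was subtracted, limma called 0 of all shared windows and 0 of the 2730. At an unadjusted p under 0.05, 486 of all shared windows were then higher and 395 lower, and 125 of the 2730 were higher and 319 lower. Summed input counts of the 2730 windows in R101H were 0.664 times those in WT, with 2 R101H and 3 WT replicates listed there. Over all shared windows, most of which passed in 2 WT replicates, that ratio was 0.925. The sources used here do not name the inputs behind each list.

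The overall shift was carried by exons. The median difference was 0.80 in the 3′ UTR, 0.63 in coding sequence, 0.63 in lncRNA exons and 0.52 in the 5′ UTR. In introns it was 0.03, with 842 windows higher and 787 lower in R101H. In small RNA exons it was −0.35, with 13 of 43 windows higher and 30 lower. Of the 2730 windows, limma called 208 of 925 coding windows and 171 of 723 3′ UTR windows higher in R101H and none lower. In introns it called 13 higher and 5 lower of 566. The difference varied with the pooled WT input, with a median of 0.08 where it was 0 to 4, 0.48 where it was 5 to 9, 0.69 where it was 10 to 29, 0.73 where it was 30 to 99 and 0.54 where it was 100 or more. Among windows with a pooled input of at least 10, the intronic median stood at −0.44 relative to the median of all such windows.

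**Figure D4:**
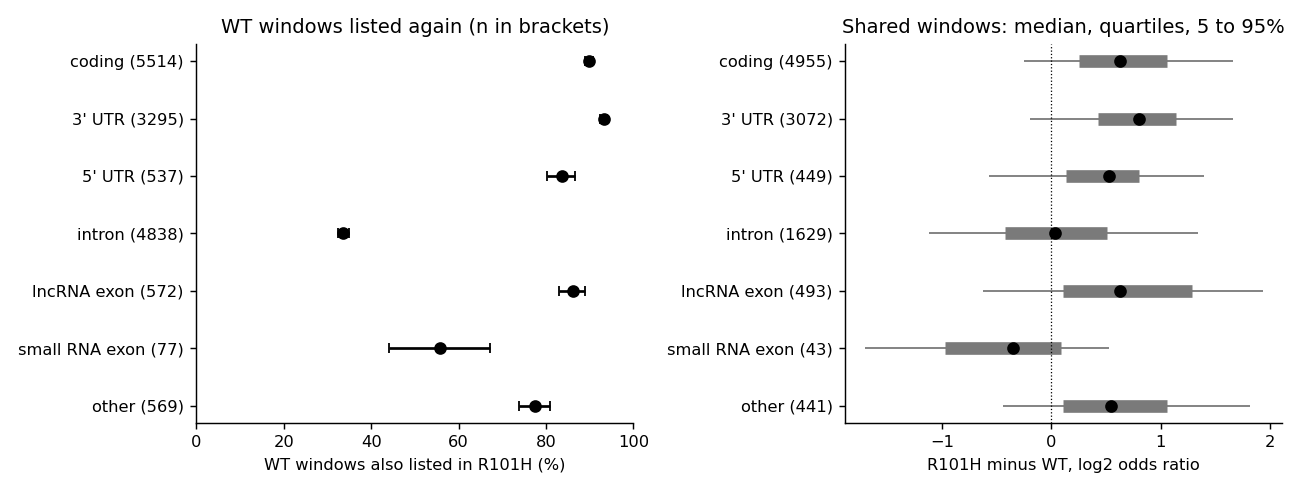
Left, percent of WT windows also listed in R101H (x axis, from 0 to 100) by transcript feature, with exact 95% intervals for counting error and the number of WT windows in brackets. Right, R101H minus WT log2 odds ratio (x axis) of the shared windows of each feature, with the median as a point, the quartiles as a thick bar and the 5th to 95th percentile as a line. Introns recur at 33.7% with a median difference of 0.03, and 3′ UTR windows at 93.2% with a median difference of 0.80.

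The largest differences were ranked among windows enriched in every replicate with a pooled input of at least 10 in both groups. In the 3′ UTR of R3HDM4 (chr19:896876-896969) the log2 odds ratios were 4.74 and 5.02 in R101H, against 2.28, 2.41 and 3.04 in WT. The difference was 2.31 (SE 0.39), with a limma adjusted p of 0.162 over all shared windows and 0.046 over those enriched in every replicate. In the coding sequence of HERC2, a large ubiquitin ligase, chr15:28163190-28163285 had 4.15 and 4.62 in R101H, against 1.83, 2.02 and 2.52 in WT. In both windows both R101H values lay above every WT value. CAD, the enzyme that starts pyrimidine synthesis, had 7 shared windows, all above every WT value in both R101H samples, with a median of 1.54. Over all shared windows, 48.4% lay above every WT value in both.

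NORAD, a long noncoding RNA of the cytoplasm, had one of the higher medians on the R101H side. It had 10 R101H-only, 37 shared and no WT-only windows. All 37 shared windows were higher in R101H, with a median of 1.29. In 32 both R101H values lay above every WT value, against 48.4% of all shared windows. MALAT1 and NEAT1 had other values. MALAT1 had 1 R101H-only, 25 shared and 17 WT-only windows, with a median difference of −0.10, and NEAT1, the scaffold of paraspeckles, had none, 55 and 11, with a median of −0.11. TUG1 had 29 R101H-only, 2 shared and no WT-only windows. XIST exons held 15 R101H-only, 6 shared and 1 WT-only windows. All 6 shared ones were higher in R101H, with a median of 0.58, near the 0.60 of all shared windows. Over the 8 listed long noncoding RNAs of known role, 73 shared windows were higher and 53 lower in R101H.

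Among the small RNA lists, the difference was lowest in windows annotated to genes of U3, the snoRNA that guides early 18S processing. The U3 genes had no R101H-only, 16 shared and 9 WT-only windows. Of the 16 shared windows, 14 were lower in R101H, 10 had both R101H values below every WT value, and the median difference was −1.06. At chr17:19188315-19188414, annotated to SNORD3A, input counts were 22 in R101H and 26 in WT. The log2 odds ratios there were 1.31 and 1.43 in R101H, against 2.48, 2.85 and 3.19 in WT. That difference was −1.47 (SE 0.37), with a limma adjusted p of 0.162 over all shared windows and 0.046 over those enriched in every replicate. U3 genes are near-identical copies, so counts may be split among them. The WT-only window with the highest IP count was also in SNORD3A, at chr17:19188016-19188114, with 80072 IP over 62397 input counts in WT. All 16 shared windows together had 973 input counts in R101H and 1369 in WT. Their median thus leaves out the U3 windows with most reads, which have no R101H value.

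Several other small RNAs had WT-only windows. The 7SL, 7SK, Y and vault RNAs had 5 windows, all WT-only. Among them VTRNA1-2 had 5624 IP over 2345 input counts and VTRNA1-1 had 2792 over 1221, both vault RNAs. MT-RNR2, the mitochondrial 16S ribosomal RNA, had 2 WT-only windows. Mitochondrially encoded transcripts had 5 R101H-only, 12 shared and 6 WT-only windows, with a median shared difference of −0.04. Spliceosomal snRNA genes had 5 R101H-only, 16 shared and 7 WT-only windows, with a median of −0.12, which was 0.09 in the 10 of them enriched in every replicate.

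MIR6724-1 lies on the short arm of chromosome 21, where ribosomal DNA is found. The windows with its name alone were 1 shared and 6 WT-only, with none in R101H alone. The shared window, chr21:8205584-8205672, had log2 odds ratios of 2.28 and 2.76 in R101H, against 4.42, 4.89 and 5.18 in WT. That was a difference of −2.31 on 40 IP counts in R101H and 461 in WT, with input counts of 3 and 8. The window that covers the microRNA itself, chr21:8205315-8205406, was WT-only with 279 IP over 4 input counts. The gene has further copies, so the copy of origin is uncertain.

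EEF1A1 encodes the elongation factor that brings tRNA to the ribosome. Among genes with at least 5 shared windows, it had the lowest median after SNORD3B-2, which stood at −1.27. It had 1 R101H-only, 14 shared and 1 WT-only windows. All 14 shared windows were lower in R101H, with both R101H values below every WT value in all 14 and a median difference of −1.20. The window chr6:73520758-73520849, annotated as 5′ UTR, had 5.94 and 6.97 in R101H, against 7.79, 8.12 and 8.90 in WT. It held 11897 IP over 67 input counts in R101H and 44467 over 84 in WT. The difference was −1.81 (SE 0.50), with limma adjusted p of 0.162 over all shared windows and 0.051 over those enriched in every replicate. The median ratio over all shared windows was 2.46 in R101H and 1.85 in WT. The IP cells carried a plasmid that the input cells lacked. Whether plasmid RNA is part of this signal was not tested. Because EEF1A1 holds 14 of the 30 shared windows of elongation factor genes, that list had a median of −0.62. EEF1D, a subunit of the factor that recharges EEF1A1, had 53 R101H-only, 7 shared and 2 WT-only windows.

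RPS19 itself, the precipitated protein, had 3 R101H-only, 12 shared and 16 WT-only windows, counting those that also carry another gene's name. Reads from the plasmid copy and the endogenous gene cannot be told apart here. Its coding windows had high counts in both groups. At chr19:41861162-41861212 the log2 odds ratios were 5.55 and 5.63 in R101H, against 5.40, 5.88 and 6.13 in WT, on 35886 and 59466 IP counts. The groups overlapped there, and of the 6 shared coding windows 5 were lower and 1 higher in R101H, with a median of −0.26. The R101H-only windows included one in the 5′ UTR, chr19:41860255-41860334, with 2609 IP over 625 input counts and ratios of 0.71 and 1.38. All 6 RPS19 windows annotated as 3′ UTR were WT-only, with 31 to 49 IP counts each.

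Windows that overlapped microRNA hairpins, with those on chromosome 8 left out, numbered 51. The hairpin set used had no entry for MIR6724-1, so the windows of that gene are not counted here. Of the 51 windows, 35 were R101H-only, 11 shared and 5 WT-only, while 84.2% of all windows were R101H-only. The windows that overlapped the hairpins of miR-17, miR-18a, miR-19a and miR-20a were R101H-only. The window that overlapped MIR17 and MIR18A, chr13:91350664-91350759, had 106 IP over 29 input counts and ratios of 1.56 and 2.12. It covered part of each hairpin, none of miR-17-5p and only the first bases of miR-18a-5p. The MIR19A window covered part of miR-19a-3p but not its seed. The MIR20A window covered all of miR-20a-5p and had 49 over 8 and ratios of 1.62 and 3.51. MIR221 was R101H-only at 27 over 5, and MIR222, with the same seed, was shared, at 2.79 and 6.92 in R101H and 2.31 and 3.03 in the 2 WT replicates that passed. The MIR34A window was shared, at 2.07 and 2.47 in R101H, against 1.55, 1.70 and 2.18 in WT, so the groups overlapped. It held 81 IP counts in R101H and 95 in WT. MIR16-1 had 3.02 and 4.84 in R101H and 3.85 and 4.92 in 2 WT replicates, on input counts of 4 and 1. With so few input reads, the order of these hairpins could not be told at this depth.

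Repeat elements were counted over all copies of an element. The authors listed 252 elements for R101H and 79 for WT, of 266 in all, with 187 R101H-only (70.3%), 65 shared (24.4%) and 14 WT-only (5.26%). Simple repeats made up 155 of the R101H-only, 20 of the shared and 4 of the WT-only elements. Transposons made up 26, 8 and 7. Transfer RNAs, which decode mRNA on the ribosome, were mostly shared, with 3 R101H-only, 32 shared and 2 WT-only elements. The U3 element was WT-only, with 343998 IP over 279967 input counts and ratios of 0.27, 0.60 and 0.76 in WT.

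Of the 32 shared tRNA elements, 31 had a higher mean in R101H, with a median difference of 0.46, close to that of all shared elements. In 3 of the 32 both R101H values lay above every WT value. The histidine tRNA element tRNA-His-CAY_ had 2.81 and 3.25 in R101H, against 1.67, 2.05 and 2.66 in WT. The serine element tRNA-Ser-TCY had 1.83 and 3.47 in R101H, against 1.05, 1.71 and 2.24 in WT, and so overlapped. The lysine element tRNA-Lys-AAA was the one tRNA that was lower, at 1.45 and 1.99 in R101H, against 1.58, 1.84 and 2.62 in WT. Over all 65 shared elements the median was 0.45, 60 were higher in R101H (92.3%), and 20 lay above every WT value in both R101H samples (30.8%). In limma no element passed an adjusted p of 0.05 (0 of 65, smallest adjusted p 0.124), and 5 had an unadjusted p under 0.05, all higher in R101H. With limma's trend and robust options, 1 element, (CTC)n, was called (1.54%, adjusted p 0.016).

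**Figure D5:**
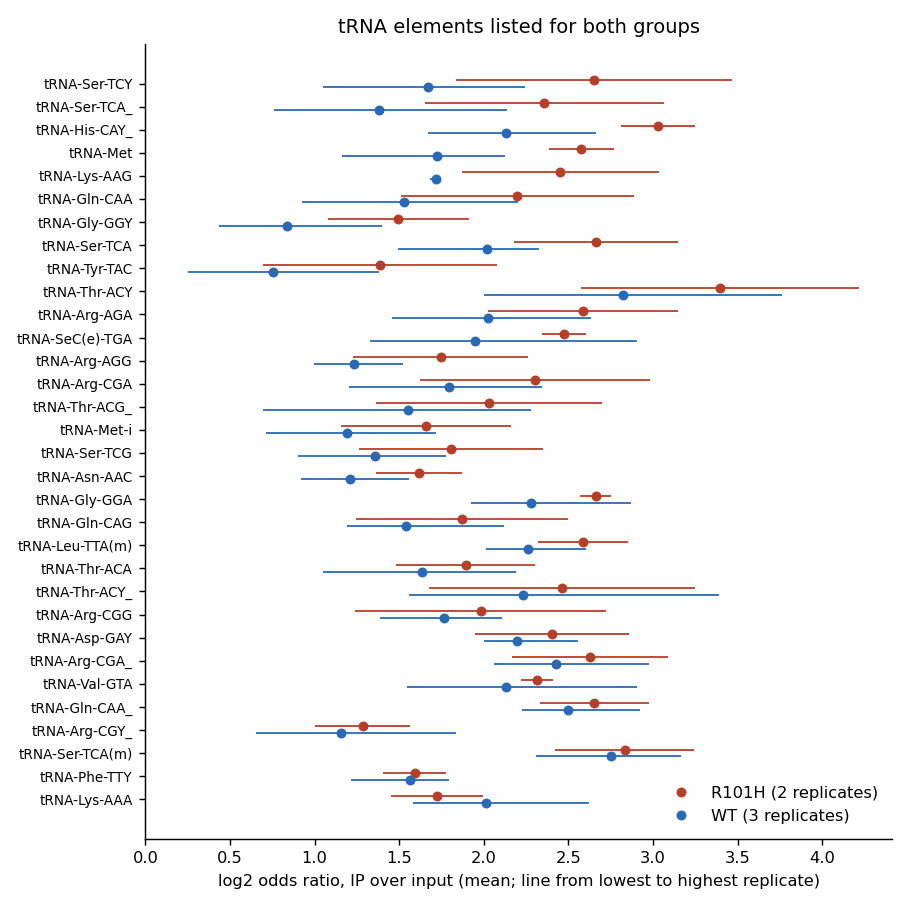
Log2 odds ratio of IP over input (x axis) for the 32 shared tRNA elements, with R101H (2 replicates) drawn above WT (3 replicates) in each row. Points are means and lines run from the lowest to the highest replicate. The mean is higher in R101H in 31 elements, and the lines of the groups are apart, with R101H higher, in tRNA-His-CAY_ and 2 others.

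The letters of simple repeat units were counted in each class, and no test was made between classes. Of the 155 R101H-only simple repeats, 39 had a unit made only of pyrimidines (C and T) and 9 only of purines, and the median share of G and C in the unit was 50%. Of the 20 shared ones, 8 were all pyrimidine. The 4 WT-only ones had a median share of G and C of 92.9% and none was all pyrimidine. With 4 elements, the share of all-pyrimidine units cannot be compared with that of the other classes. Among the WT-only ones, (CGAGCCG)n had 1076 IP over 20 input counts and ratios of 4.19, 4.47 and 5.42. Among the shared ones, (TTGTTT)n had 2.38 and 2.83 in R101H, against 1.01, 1.27 and 1.33 in WT, so that R101H was higher by 1.40, with SE 0.31 and a limma adjusted p of 0.124. The pyrimidine repeat (CTC)n had 1.59 and 1.79 in R101H, against 0.12, 0.61 and 0.94 in WT. In both elements the groups did not overlap. Among R101H-only elements, GA-rich had the highest IP count, 32066 over 14260 input counts, with ratios of 0.56 and 0.95.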

How the data were processed

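eCLIP of V5-tagged RPS19 was compared between 2 R101H and 3 WT samples, grouped by their labels. Tools named in the submitters' processing notes are fastp and STAR, with GRCh38 as the build, and the sources used here do not name the window caller. Per the file headers, the authors deposited IP and input counts per window or element, pooled over replicates. The deposited log2 values are odds ratios of IP over input, given by their lowest value, mean and highest value over replicates. The authors' enrichment test gave the deposited p-values and q-values, and no listed window has a q above 0.2. The fraction of G and C bases is deposited as well, and per the file headers 1 other column gives how many replicates passed. From the values, window ratios cover only the replicates that passed, which was always 2 in R101H and 2 or 3 in WT (3516 of 15402 WT windows passed in 3), and ratios of repeat elements cover all replicates.

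Windows were matched on chromosome, start, end and strand, and written 1-based. Counts over all genes, gene medians and the genes with most windows use the authors' gene name as it stands, in which overlapping genes are joined. Gene lists, their members and the features of a gene count a joined window under each gene. Features labelled other are mRNA exons of no coding class, pseudogene exons and primary microRNAs. Shares carry exact Clopper-Pearson 95% intervals. Lowest, mean and highest fix the 2 or 3 replicate values, without replicate numbers, and limma 3.58.1 (lmFit, then eBayes, in R 4.3.3) compared them over all shared windows, with Benjamini-Hochberg adjustment at 0.05. The fit was run on simulated data with changes of random sign and no common shift. The shared windows here do have a common shift, so that run does not bear on calls made under it. Counts were pooled, so no count model could be fitted. The alternatives were other q limits, a pooled input count of at least 10, windows enriched in every replicate, centring on the median, limma's trend and robust options, matching within 100 bases, a shortened R101H list, leaving out windows listed for R62W, and genes with at least 3 windows.

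The 35 gene lists, their members and the windows compared were chosen with earlier results of these data known. Named genes are the 10 with most R101H-only or WT-only windows (overall and without a window in the other group), the 10 highest and lowest medians among genes with at least 5 shared windows, up to 4 members per list, and the 10 windows with the highest counts or largest differences. Other genes or windows (the shared microRNA hairpins, MIR6724-1, RPS19 and the features of named genes) were chosen after their values were seen. Sequences are RefSeq's. Of the marker genes of the line looked up, PAX2, LHX1 and NEFM had no listed window and NEFL had 2 R101H windows. Some genes that these rules name are not reported here.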

Additional observations from a re-analysis of the deposited data

How the results depend on the processing

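No difference of shares changed sign under any alternative, while counts of listed windows moved with every limit. Centring on the median shift, 0.60 for windows and 0.45 for repeat elements, turns negative every median below it. No paired analysis was possible because the deposited values carry no replicate numbers, and leaving out each replicate in turn was not possible for the same reason. R101H-only windows numbered 40993 at a q of at most 0.05, 45409 with input of at least 10, 9036 with the R101H list shortened to the WT length and 33002 without windows listed for R62W. Shared windows numbered 2730 when enriched in every replicate, then 2155, 6945, 6366 and 455 at those limits in the same order. WT-only windows numbered 786 in every replicate, then 832, 1415, 9036 and 2684. The q, input and replicate limits were applied to each list on its own. A shared window that failed a limit in 1 list then counted in the other alone. Of WT windows with a pooled WT input of 10 to 99, 88.9% were in the full R101H list. The percent of WT windows recurring was 77.6 in every replicate, 83.1 with input of at least 10, 41.3 shortened, 80.8 within 100 bases and 14.5 without R62W. The difference in coding share (R101H-only minus WT-only, in points) was 53.4 in every replicate, 44.3 by q, 26.6 by input, 30.7 shortened, 47.4 within 100 bases and 21.2 with 1 window per gene. For introns it was −80.0, −32.9 by input, −46.0 shortened, −71.2 within 100 bases, −70.2 without R62W and −31.9 per gene. For the 3′ UTR it was 24.5, 23.8 by q, 13 by input, 19 shortened and 23.8 without R62W. Genes in R101H alone numbered 683 shortened, 2881 with at least 3 windows and 901 without R62W, and genes in WT alone numbered 19 in every replicate, 1098 shortened, 5 and 17. limma called 487 windows higher and 11 lower in every replicate, and 647 and 7 by input. It called 1 repeat element with the trend and robust options. WT-only repeat elements numbered 5 at a q of at most 0.05. The cause of each move was not tested, except that stricter limits leave fewer windows. Windows with few input reads limit the rest: the smallest changes there could not be told from the spread between replicates.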

Other observations

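Genes of mitochondrial and protein quality control pathways had windows in both lists with medians under the 0.60 of all shared windows. Nuclear-encoded oxidative phosphorylation genes held 307 R101H-only, 98 shared and 26 WT-only windows. Of the 98 shared windows 83 were higher in R101H, against 82.5% of all shared windows, with a median of 0.36. Proteasome subunit genes held 265, 45 and 11, with a median of 0.23. Chaperone genes held 209, 86 and 22, with a median of 0.18 and 28 of 86 shared windows lower in R101H. Actin and tubulin genes held 39, 82 and 17. Cohesin and condensin genes, which organise chromosomes, were mostly R101H-only, with 452, 22 and 7. DEAD and DEAH box helicase genes held 729, 105 and 8, with 96 of 105 shared windows higher in R101H.

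Of 20 erythroid genes only TFRC, the transferrin receptor, had a window, with 11 R101H-only, 4 shared and 5 WT-only. Iron uptake and heme synthesis genes held 136 R101H-only, 7 shared and 7 WT-only windows. Ribosomal protein and related genes of Diamond-Blackfan anemia held 84, 31 and 19, which includes RPS19 with its 16 WT-only windows. snoRNA host transcripts held 144, 24 and 9, the other snoRNAs and scaRNAs held 4, 7 and 8, and replication-dependent histone genes held 9, 1 and none.

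BSG, which encodes the cell surface protein basigin, had 4 R101H-only, 8 shared and 29 WT-only intronic windows, and all 8 shared ones were lower in R101H, with a median of −1.01.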
